A study of Mus musculus with 96 samples.

Results

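A set of 10 genes that mark the stellate cells of mouse liver or build the matrix around them was followed through a study of light schedule shifts in pregnancy. They are Reln, Dcn, Bgn, Lum, Col1a1, Col1a2, Col3a1, Mmp2, Rgs5 and Lrat. The genes were chosen by name, with earlier results of these data known. All 10 were found once in each of the 8 deposited expression tables, among 24066 genes with a single entry. Hepatic stellate cells lie between the hepatocytes and the sinusoidal endothelium and store vitamin A as retinyl esters. In injured liver they turn into myofibroblasts that lay down fibrillar collagens. Lrat makes the retinyl esters, Reln encodes the secreted glycoprotein reelin, and both mark resting stellate cells. Rgs5, a regulator of G protein signalling, marks pericytes and stellate cells. Dcn (decorin), Bgn (biglycan) and Lum (lumican) are small leucine-rich proteoglycans that bind collagen fibrils. Col1a1 and Col1a2 are the chains of type I collagen, Col3a1 is the chain of type III collagen, and Mmp2 is a gelatinase that cleaves matrix proteins.

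Polyadenylated RNA was sequenced from livers of the mouse strain C57BL/6J, in 96 libraries that make up 8 arms of 12, with 3 at each of ZT0, ZT6, ZT12 and ZT18, where ZT is the time in hours after lights on. Shifted mothers had the light/dark cycle advanced by 8 h every 5 days during pregnancy, and control mothers kept a 12 h light and 12 h dark cycle. Livers came from shifted and control mothers, from fetuses of shifted and control mothers, and from male offspring of shifted and control mothers that were given a high-fat or a low-fat diet ad libitum from the age of 4 weeks for 12 weeks. The labels used here give no day of gestation, no fetal sex and no word on pooling, and do not say that replicates are separate animals, so p-values measure the spread between these samples. The 8 arms came as 8 separate tables, and a difference between tables cannot be told apart from a difference between arms. In bulk liver, fewer cells of a type and less RNA per cell cannot be told apart.

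The tables hold FPKM, fragments per kilobase of transcript, scaled to the mapped fragments of the library, with no counts, so the sequencing depth is unknown and no counting interval is given. The values of a library summed to between 497208 and 804453 FPKM. One library stood apart: replicate 1 of the high-fat offspring of control mothers at ZT0 listed 15512 entries at 0, among them 1635 genes whose median in that arm was at least 1 FPKM. It listed Col1a1, Lrat, Lum, Mmp2 and Rgs5 at 0. Calls of members that rest on this arm are given with and without it, and 4 further libraries had a median correlation with their own arm of between 0.926 and 0.949. Alb, the albumin gene of hepatocytes, had a median of 25661 FPKM in fetuses of shifted mothers, 29393 FPKM in fetuses of control mothers, 133016 FPKM in shifted mothers and 141919 FPKM in control mothers on 1 common scale. Levels below are FPKM after median-of-ratios scaling within mothers, fetuses or offspring. Where fetuses are set against mothers, levels are on the scale common to both and so differ from those given elsewhere. All differences are on the log2(FPKM + 1) scale from limma with Benjamini-Hochberg adjustment over all genes tested.

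Promoter windows of RefSeq (build GRCm38.p6), from 250 bases before to 50 bases after the gene start, were available for 6 of the 10 genes: Bgn, Col1a2, Col3a1, Lrat, Reln and Rgs5. The windows of 3 genes are shown: Reln, which was called in both comparisons of offspring by maternal schedule, and Col1a2 and Col3a1, whose levels moved together most closely over the libraries. Windows lie at chr5:22344656-22344955 on the minus strand for Reln, chr6:4505368-4505667 on the plus strand for Col1a2 and chr1:45311288-45311587 on the plus strand for Col3a1. Capitals mark, on either strand, the letters CCAAT of a CCAAT box, GGGCGG of a GC box, TATAAA of a TATA box, CACGTG of an E-box or CAGACA of a SMAD-binding element, and no marked matches overlap in these 3 windows.
Reln: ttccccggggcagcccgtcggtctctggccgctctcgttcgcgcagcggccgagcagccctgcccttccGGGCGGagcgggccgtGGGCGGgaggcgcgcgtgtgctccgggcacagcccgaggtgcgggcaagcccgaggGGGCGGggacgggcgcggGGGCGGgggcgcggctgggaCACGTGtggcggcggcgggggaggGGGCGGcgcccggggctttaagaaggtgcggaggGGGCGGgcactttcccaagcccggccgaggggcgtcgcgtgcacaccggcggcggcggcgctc
Col1a2: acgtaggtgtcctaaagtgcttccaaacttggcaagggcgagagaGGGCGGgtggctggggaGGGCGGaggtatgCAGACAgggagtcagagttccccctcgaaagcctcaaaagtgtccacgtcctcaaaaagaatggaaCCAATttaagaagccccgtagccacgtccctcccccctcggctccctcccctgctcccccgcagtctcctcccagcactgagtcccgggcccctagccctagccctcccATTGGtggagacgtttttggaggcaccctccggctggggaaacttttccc
Col3a1: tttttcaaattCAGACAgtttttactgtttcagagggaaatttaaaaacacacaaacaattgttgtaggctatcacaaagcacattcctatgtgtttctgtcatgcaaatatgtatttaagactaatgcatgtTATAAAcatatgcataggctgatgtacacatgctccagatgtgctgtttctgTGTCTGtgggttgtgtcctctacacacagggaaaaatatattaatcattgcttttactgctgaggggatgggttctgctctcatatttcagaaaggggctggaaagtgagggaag

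The Reln window holds 6 GGGCGG matches, the first at -181 and the last at -13 from the gene start, and has CACGTG at -71. Its GC content was 80.7%, against 61% for Col1a2 and 37.7% for Col3a1. Col1a2 holds GGGCGG at -205 and -188, CAGACA at -175, CCAAT at -109 and its reverse complement at position 1, counted with the RefSeq gene start as 1. Col3a1 holds TATAAA at -117, CAGACA at -239 and the reverse complement of CAGACA at -65. Over 32851 RefSeq promoter windows of the same length, 37.4% hold CCAAT on either strand, 35.7% have a match to GGGCGG, 13.6% have one to TATAAA, 7.15% have one to CACGTG and 21.0% have one to CAGACA. The matches describe the letters only.

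In the annotation of mm10, Reln is the gene at chr5:21884454-22344702 on the minus strand, Lrat the one at chr3:82892579-82903973 on the minus strand and Rgs5 the one at chr1:169655501-169695813 on the plus strand. Dcn (chr10:97479609-97518143) and Lum (chr10:97565128-97572703) are neighbours on the plus strand, 47.0 kb apart. The other members lie on 5 further stretches of the genome: Bgn at chrX:73483602-73495933, Col1a1 at chr11:94936224-94953042, Col1a2 at chr6:4504814-4541544, where the annotated start lies upstream of the RefSeq start and of the window printed above, Col3a1 at chr1:45311538-45349706 and Mmp2 at chr8:92827291-92853420.

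**Figure D1:**
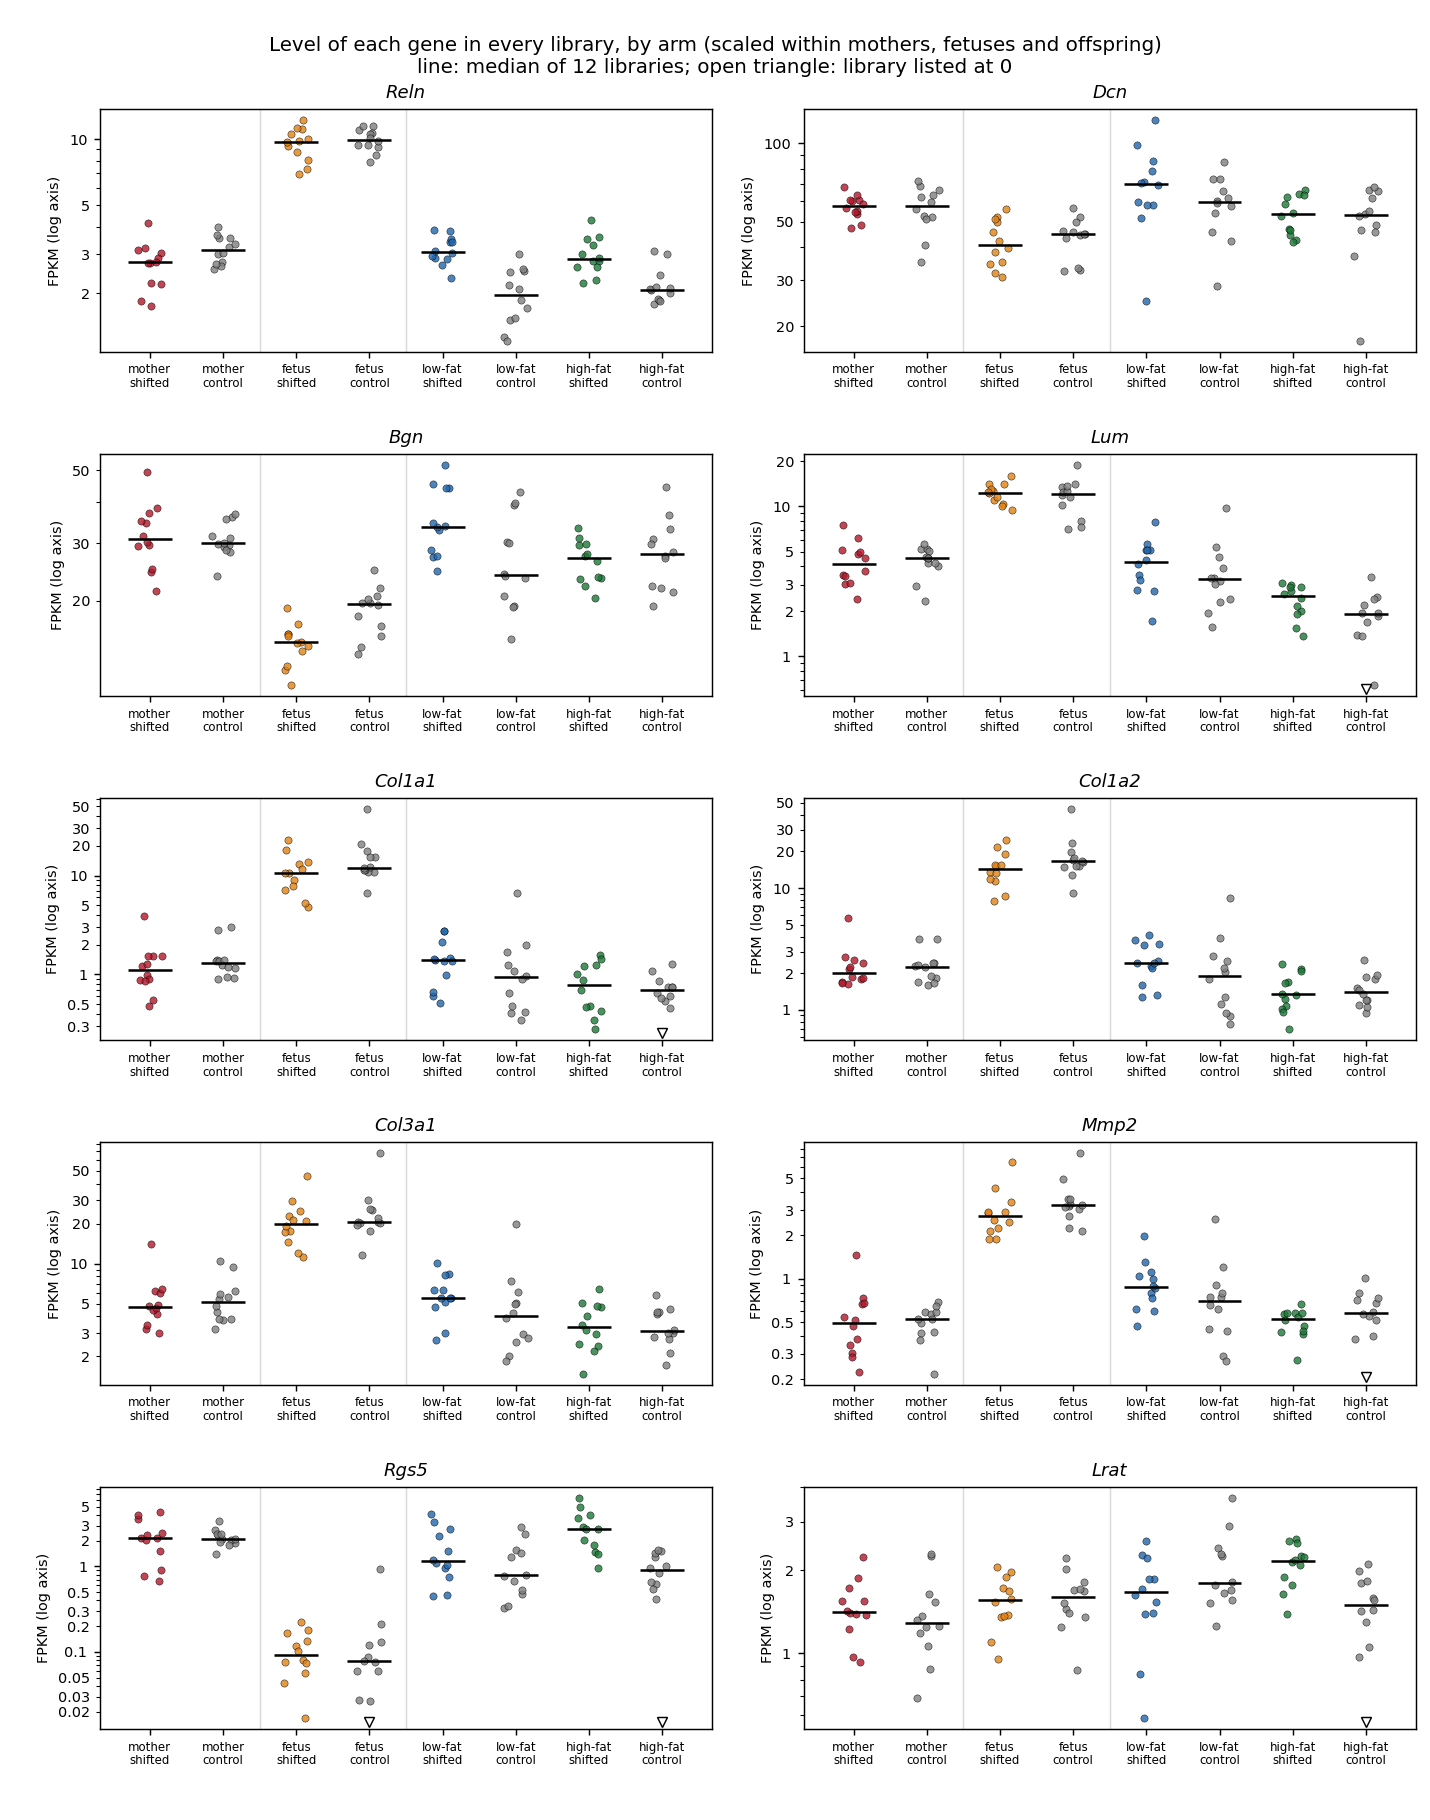
FPKM of each of the 10 genes in every library on a log axis, by arm, scaled within mothers, fetuses and offspring; the line is the median of 12 libraries and an open triangle a value listed at 0. Dcn has the highest median of the 10 in every arm, and Rgs5 the lowest in fetuses.

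FPKM is per length, so levels can be set beside each other between genes, and Dcn was the most abundant of the 10 in all 8 arms. Its median was 57.6 FPKM in shifted mothers and 57.6 FPKM in control mothers, and in offspring the arm medians lay between 53.1 and 70.1 FPKM. Bgn came next in adult livers, at 30.9 FPKM in shifted mothers and 30.0 FPKM in control mothers. Col3a1 and Lum followed in mothers, with medians of 4.70 and 4.10 FPKM in shifted mothers and 5.14 and 4.54 FPKM in control mothers. Reln, Col1a2, Rgs5, Lrat and Col1a1 had medians between 1.11 and 3.14 FPKM in mothers of either schedule. Mmp2 was the lowest member in mothers, at a median of 0.495 FPKM in shifted and 0.523 FPKM in control mothers, too low to be tested there. The order was another one in fetuses. There the medians of Col3a1, at 20.0 FPKM in fetuses of shifted and 20.6 FPKM in fetuses of control mothers, stood above those of Bgn, at 14.96 and 19.6 FPKM, with overlapping ranges. Rgs5 was the lowest member in fetuses and was listed at 0 in 1 library of fetuses of control mothers, too low to be tested between schedules.

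Fetal livers held more type I and type III collagen, Mmp2, Reln and Lum RNA than maternal livers, and less Bgn, Dcn, Rgs5 and Lrat RNA. The labels link no fetal library to a maternal one. On a scale common to mothers and fetuses, 10 of 10 members differed under both schedules, 6 higher and 4 lower in fetuses. Mmp2 failed the filter on low values among mothers alone, and Rgs5 among fetuses alone. Each entered the common fit through the stage where it is high, so their calls are not independent of the filter. Of all 12501 genes tested, 85.2% differed in fetuses of shifted mothers and 84.8% in fetuses of control mothers, so a change in all members is close to what most genes did. By direction, 43.6% of genes were higher and 41.6% lower with shifted, and 43.2% and 41.6% with control schedules. The median log2 difference of the members was 0.75 with shifted and 0.63 with control schedules, against 0.027 and 0.021 over all genes.

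Col1a1 ranged between 3.59 and 17.1 FPKM in fetuses of shifted mothers, with a median of 8.12 FPKM, against 0.632 to 5.08 FPKM with a median of 1.45 FPKM in shifted mothers. In fetuses of control mothers it ranged between 4.96 and 35.4 FPKM, median 9.21 FPKM, against 1.19 to 4.00 FPKM, median 1.69 FPKM, in control mothers. The log2 difference was 1.79 ± 0.22 (SE, adjusted p = 1.76e-09) with shifted and 2.05 ± 0.22 (adjusted p = 7.80e-11) with control schedules. With the control schedule every fetal library was above every maternal one. Its partner chain Col1a2 showed the same order, with log2 differences of 1.58 ± 0.17 (adjusted p = 1.54e-10) with shifted and 1.83 ± 0.17 (adjusted p = 3.81e-12) with control schedules. Col3a1 differed by 1.08 ± 0.22 (adjusted p = 2.13e-05) and 1.21 ± 0.22 (adjusted p = 3.83e-06), and fetal and maternal libraries overlapped. Mmp2, the gelatinase, had a median of 2.05 FPKM in fetuses and 0.653 FPKM in mothers with shifted schedules, and 2.48 FPKM in fetuses and 0.684 FPKM in mothers with control schedules. Its log2 differences were 0.91 ± 0.13 (adjusted p = 2.90e-08) and 1.11 ± 0.13 (adjusted p = 3.60e-10).

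The small proteoglycans did not move as 1 family between the stages. Bgn had a median of 11.3 FPKM in fetuses and 40.5 FPKM in mothers with shifted schedules, and 14.7 FPKM in fetuses and 39.4 FPKM in mothers with control schedules. Its ranges did not overlap under either schedule, and the log2 differences were -1.81 ± 0.09 (adjusted p = 1.77e-19) and -1.46 ± 0.09 (adjusted p = 1.09e-16). Dcn also fell without overlap, by 1.23 ± 0.10 with shifted (adjusted p = 8.44e-14) and by 1.13 ± 0.10 with control schedules (adjusted p = 7.79e-13). Over all genes, 23.4% were lower without overlap with shifted and 23.8% with control schedules, and 26.2% and 26.9% were higher without overlap. Lum was higher in fetuses, by 0.65 ± 0.13 (adjusted p = 1.91e-05) with shifted and 0.54 ± 0.13 (adjusted p = 2.43e-04) with control schedules, although Lum and Dcn lie side by side on chromosome 10.

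The 3 members that mark resting stellate cells or pericytes differed in direction as well. Reln had a median of 7.40 FPKM in fetuses and 3.65 FPKM in mothers with shifted schedules, and 7.65 FPKM in fetuses and 4.16 FPKM in mothers with control schedules (log2 differences 0.86 ± 0.08, adjusted p = 5.61e-13, and 0.72 ± 0.08, adjusted p = 4.96e-11). Rgs5 had a median of 0.0693 FPKM in fetuses and 2.84 FPKM in mothers with shifted schedules, and 0.0585 FPKM in fetuses and 2.74 FPKM in mothers with control schedules. The highest fetal library, at 0.697 FPKM, lay below the lowest maternal library, at 0.880 FPKM. Lrat differed least, by -0.43 ± 0.09 (adjusted p = 2.80e-05) and -0.35 ± 0.09 (adjusted p = 3.91e-04), with overlapping ranges. Its sign depended on the scaling: with the values as deposited the Lrat difference was 0.076 with shifted and 0.080 with control schedules. That scaling moved the median difference of all genes to 0.64 with shifted and 0.55 with control schedules, and the share of calls that were higher in fetuses to 77.9% and 76.1%, against 51.2% and 51% with median-of-ratios scaling.

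Other matrix and stellate genes were counted from lists by function, and the shares called are to be read against the 85.2% and 84.8% of all genes called with shifted and control schedules. Of 21 tested genes of fibrillar collagens and their assembly, 14 were higher and 3 lower in fetuses with shifted schedules, and 17 and 3 with control schedules. They include Col5a1, which co-assembles with type I collagen, at a log2 difference of 1.99 with control schedules, and the cross-linking enzyme Loxl2 at 1.50. Of 21 resting stellate cell markers, 3 were higher and 11 lower with shifted schedules, and 4 and 11 with control schedules, with the filament gene Gfap at 1.96 and the chemokine Cxcl12 at -2.10 with control schedules. Of 11 myofibroblast markers, 7 were higher and 1 lower with shifted, and 9 and 1 with control schedules. Acta2, smooth muscle actin, had a median of 3.57 FPKM in fetuses and 0.521 FPKM in mothers with shifted schedules. Of 12 genes of retinoid handling, 2 were higher and 10 lower with shifted, and 1 and 9 with control schedules. Other cell types moved too: 8 of 8 hepatocyte markers were lower and 4 of 4 erythroid markers higher in fetuses under either schedule. The part of cell composition in the members' differences was not tested.

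**Figure D2:**
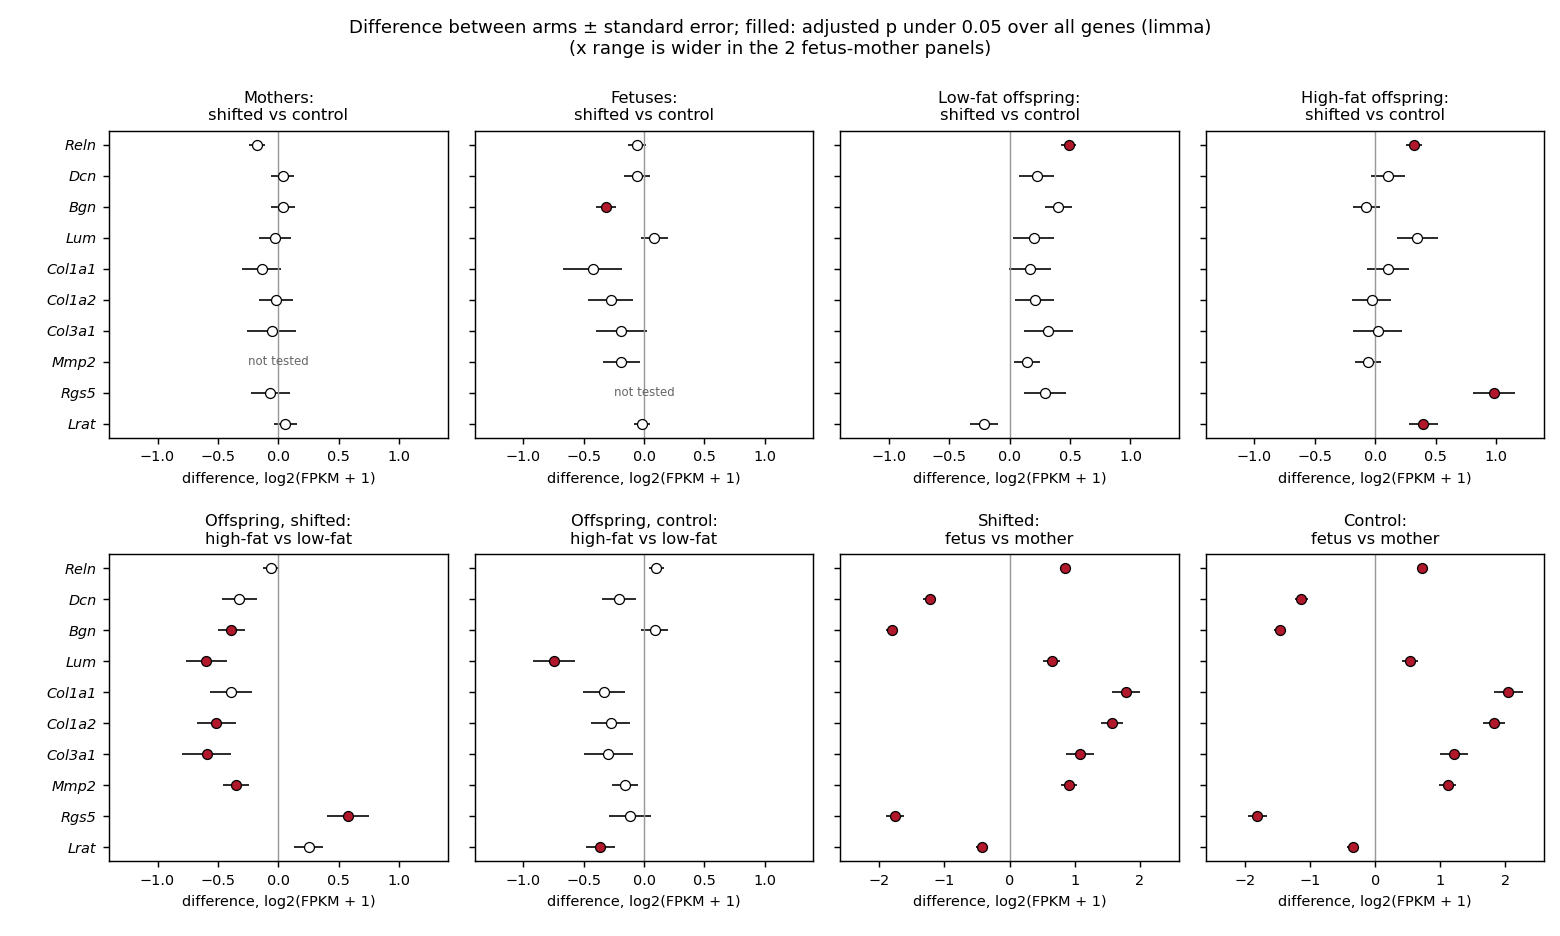
Log2(FPKM + 1) difference of each member, with its SE, in 8 comparisons; filled points had an adjusted p below 0.05, and the 2 panels of fetuses against mothers have a wider axis. The 10 members split into 6 higher and 4 lower in fetuses, and Reln is the only member called in both comparisons of offspring by maternal schedule.

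In the livers of mothers, no member was called between shifted and control schedules. By limma 0 of 9 tested members passed an adjusted p of 0.05, against 7.88% of all 10405 genes. The member with the lowest adjusted p was Reln, at a median of 2.76 FPKM in shifted and 3.14 FPKM in control mothers. It ranged between 1.75 and 4.17 FPKM in shifted mothers and between 2.57 and 3.98 FPKM in control mothers. Its log2 difference was -0.18 with an adjusted p of 0.102. With the values as deposited Reln was called (adjusted p = 0.0362). With 1 library left out its difference lay between -0.21 and -0.14 and was not called. The members' log2 differences had a median of -0.026, beside -0.0039 over all genes. Of the genes called, 43.9% were higher with median-of-ratios scaling and 9.64% with the values as deposited. Among other genes of the sinusoid some were called in these mothers, where 460 of all 10405 genes fell. Of 10 basement membrane genes, 4 fell in shifted mothers, among them the type IV collagen chains Col4a1 and Col4a2, each by 0.39, and nidogen 1 (Nid1) by 0.67. Of 10 endothelial markers 6 fell, with the VEGF receptor Kdr at -0.55, while 0 of 14 fibrillar collagen genes and 0 of 16 resting stellate cell markers were called.

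In fetuses, Bgn was the member that differed with the mother's schedule. It ranged between 11.1 and 19.0 FPKM in fetuses of shifted mothers, median 14.96 FPKM, against 13.8 to 24.9 FPKM, median 19.6 FPKM, in fetuses of control mothers. The arms overlapped, but 12 of 12 libraries of fetuses of shifted mothers lay below the control mean of their own time. The log2 difference was -0.32 ± 0.09 (SE, adjusted p = 0.0472), and 1 of 9 tested members was called, against 3.77% of 12003 genes, 1.47% downward. Of all calls 61.1% were higher with median-of-ratios scaling, 52.2% with upper-quartile scaling and 47.4% with the values as deposited. The call was lost with no filter (adjusted p = 0.0748), with the values as deposited (0.108), with the replicate block (0.0572) and with GC and length trends removed (0.116). Leaving out 1 library ended it in 19 of 24 cases, with adjusted p between 0.0508 and 0.0963, and it was kept only without control ZT0 replicate 2, ZT12 replicate 1 or ZT18 replicate 3, or without shifted ZT0 replicate 3 or ZT12 replicate 3. The collagens had wide ranges in these fetuses. Col1a1 lay between 4.77 and 22.9 FPKM in fetuses of shifted mothers, median 10.7 FPKM, against 6.60 to 47.2 FPKM, median 12.0 FPKM, in fetuses of control mothers (log2 difference -0.42, adjusted p = 0.314). The value of 47.2 FPKM came from 1 library of control fetuses at ZT0, in which Acta2 was at 57.3 FPKM, Krt19, a bile duct keratin, at 42.7 FPKM, and Rgs5 at 0.930 FPKM. The part of other cell types in that library was not tested. Of the lists beside the members, 0 of 21 fibrillar collagen, 0 of 10 basement membrane and 0 of 19 resting stellate cell genes were called.

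Reln was higher in male offspring of shifted mothers on the low-fat diet, and of 10931 genes it was the only one called. Its FPKM in low-fat offspring of shifted mothers ranged between 2.33 and 3.85, median 3.07, against 1.22 to 3.01, median 1.97, in low-fat offspring of control mothers. The means were 3.16 ± 0.460 and 1.997 ± 0.573 FPKM (SD, n = 12 each), and the log2 difference was 0.49 ± 0.07 (SE, adjusted p = 7.47e-05). Of the 12 libraries of offspring of shifted mothers, 12 lay above the control mean of their own time, and the arms overlapped only in part. By time, the mean was 3.01, 3.45, 3.12 and 3.04 FPKM at ZT0, ZT6, ZT12 and ZT18 in offspring of shifted mothers and 1.62, 2.29, 2.59 and 1.49 FPKM in offspring of control mothers. The 3 libraries of each arm did not overlap at ZT0, ZT6 and ZT18. At ZT12 the lowest library of shifted mothers' offspring had 2.90 FPKM and the highest of control mothers' offspring 3.01 FPKM. No left-out library ended the call.

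The background in low-fat offspring was 0.00915% of genes called, and 7.44% had an unadjusted p below 0.05. Beside Reln, 1 further member had an unadjusted p below 0.05: Bgn, at a log2 difference of 0.40 with an adjusted p of 0.375. Bgn ranged between 24.7 and 52.1 FPKM in low-fat offspring of shifted mothers, against 15.3 to 42.9 FPKM in low-fat offspring of control mothers. The other 8 members had log2 differences between -0.21 and 0.32 with adjusted p of 0.726 or more. The members' median was 0.22, beside -0.01 over all genes. In the other lists no gene was called, which follows from Reln being the only call.

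On the high-fat diet 3 members were higher in offspring of shifted mothers, Reln, Rgs5 and Lrat, and none was lower. That is 3 of 10, against 48% of all genes called, 26.4% upward, so the share of members called was not above that of all genes. Of all calls, 54.9% were higher with median-of-ratios scaling and 84.6% with the values as deposited, a scaling that moved the median of all genes to 0.21. The members' median was 0.11, beside 0.01 over all genes.

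Rgs5 differed most of the 10. It ranged between 0.966 and 6.41 FPKM in high-fat offspring of shifted mothers, median 2.72 FPKM, against 0 to 1.57 FPKM, median 0.898 FPKM, in high-fat offspring of control mothers, where 1 library listed it at 0. All 12 libraries of offspring of shifted mothers were above the control mean of their time, and the arms overlapped. The log2 difference was 0.98 ± 0.17 (SE, adjusted p = 1.85e-05), and without the library with many zeros it was 0.93 (adjusted p = 3.48e-05). Of the 4 times, ZT0 had the highest mean log2 level with shifted mothers and the lowest with control mothers. The ZT0 libraries had 3.70, 4.00 and 6.41 FPKM in offspring of shifted mothers, against 0, 0.624 and 1.02 FPKM in offspring of control mothers. The value of 0 came from the library with many zeros.

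Reln in high-fat offspring ranged between 2.23 and 4.31 FPKM with shifted mothers, median 2.85 FPKM, against 1.79 to 3.09 FPKM, median 2.07 FPKM, with control mothers. The log2 difference was 0.32 ± 0.07 (SE, adjusted p = 0.000122), with 11 of 12 libraries above the control mean of their time, and 0.34 (adjusted p = 4.59e-05) without the library with many zeros. Lrat, the retinyl ester synthase, ranged between 1.39 and 2.60 FPKM with shifted mothers, median 2.16 FPKM, against 0 to 2.11 FPKM, median 1.50 FPKM, with control mothers, 1 of them listed at 0. Its log2 difference was 0.40 ± 0.12 (adjusted p = 0.00565), and 0.31 (adjusted p = 0.00869) without the library with many zeros. With trends of the libraries on GC content and transcript length removed, the Reln difference was 0.11 (adjusted p = 0.144) and that of Lrat 0.14 (adjusted p = 0.273), while Rgs5 stayed called at 0.77 (adjusted p = 0.000151).

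The collagens and proteoglycans were not called in this comparison. Col1a1 had a median of 0.782 FPKM in high-fat offspring of shifted mothers and 0.694 FPKM in those of control mothers, Col1a2 1.34 and 1.41 FPKM, and Col3a1 3.31 and 3.09 FPKM. Lum came nearest, with a median of 2.52 FPKM against 1.91 FPKM (log2 difference 0.35, adjusted p = 0.0904), and 0.24 (adjusted p = 0.177) without the library with many zeros. Leaving out high-fat control ZT12 replicate 1 (adjusted p = 0.0253) or ZT0 replicate 2 (0.0407), or low-fat control ZT0 replicate 2 (0.0457), brought Lum below the threshold. Other genes were counted by list with no test, beside 2881 of all 10931 genes that rose and 2371 that fell. Of 19 resting stellate cell markers 4 rose and 7 fell in high-fat offspring of shifted mothers. The oxidoreductase gene Steap4 was at 0.84 and the growth factor Hgf at 0.55, with the angiopoietin-like gene Angptl6 at -0.70. Of 13 retinoid genes 1 rose and 5 fell, and of 15 fibrillar collagen genes 1 rose and 3 fell, among them the collagen chaperone Serpinh1 at -0.54. Of the reelin pathway 3 genes were tested: Itgb1, an integrin chain, rose by 0.41 and Fyn, a kinase downstream of reelin in neurons, fell by 0.33. Of 10 endothelial markers 5 fell and none rose, and the part of endothelium in the members' values was not tested.

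The effect of the maternal schedule differed between the diets for 3 members, tested by the interaction term, against 24.1% of all genes. It was larger on the high-fat diet by 0.69 for Rgs5 (adjusted p = 0.0359) and by 0.61 for Lrat (adjusted p = 0.00823), and for Bgn the interaction was -0.48 (adjusted p = 0.0262). For Lrat the differences were 0.40 on the high-fat and -0.21 on the low-fat diet, for Bgn -0.07 and 0.40. With the values as deposited the Bgn difference on the high-fat diet was 0.18 and its interaction was not called (-0.28, adjusted p = 0.301). Reln was not among them, with differences of 0.32 on the high-fat and 0.49 on the low-fat diet. Leaving out 1 library ended the Rgs5 call in 15 of 48 cases, with adjusted p between 0.0505 and 0.0660. With shifted mothers these were high-fat ZT0 replicate 2, ZT6 replicate 1, ZT12 replicates 1 and 3 and ZT18 replicate 3, and low-fat ZT0 replicates 1 and 2, ZT6 replicate 3, ZT12 replicate 1 and ZT18 replicate 3. With control mothers they were high-fat ZT12 and ZT18 replicate 3, and low-fat ZT6 replicates 2 and 3 and ZT18 replicate 3. The 5 libraries of low correlation left out together gave 0.56 (adjusted p = 0.0845). Rgs5 was also lost with a pseudocount of 0.1 (adjusted p = 0.0743) and no filter (0.0661), and removal of GC and length trends ended those of Rgs5 (0.42, adjusted p = 0.183) and Lrat (0.31, adjusted p = 0.123).

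Between diets, in offspring of shifted mothers, matrix members were lower on the high-fat diet and Rgs5 was higher. Lum, Bgn, Col1a2, Col3a1 and Mmp2 fell and Rgs5 rose. That is 6 of 10 members called, against 23.1% of all genes, 11.6% downward and 11.5% upward. Over all 96 libraries, as deviations from the mean of their arm and time, Pearson r between Col1a2, Col3a1 and Mmp2 was 0.85 to 0.97. Their calls are thus not separate observations. Of all calls 49.8% were higher with median-of-ratios scaling, 38.8% with upper-quartile scaling and 69.3% with the values as deposited. With the values as deposited 3 members were called, without Bgn (adjusted p = 0.1002), Col1a2 (0.0575) and Col3a1 (0.0804). Lum (0.0838) and Rgs5 (0.0558) missed the threshold with a pseudocount of 0.1, and Col3a1 (0.0559) with no filter. The members' median log2 difference was -0.37, beside 0.01 over all genes. In limma the interaction term was not called for Lum, Col1a2, Col3a1 and Mmp2 (adjusted p of 0.350 or more). The diet difference of these genes is thus not shown to differ between offspring of shifted and control mothers. Col3a1, the type III collagen chain, ranged between 1.49 and 6.48 FPKM in high-fat offspring, median 3.31 FPKM, against 2.65 to 10.1 FPKM, median 5.50 FPKM, in low-fat offspring. Its log2 difference was -0.59 ± 0.20 (SE, adjusted p = 0.0316), that of Col1a2 was -0.51 ± 0.16 (adjusted p = 0.0202), and Col1a1 at -0.39 was not called (adjusted p = 0.102), or was (0.0226) without low-fat control ZT0 replicate 2, which stands in the same fit. Without single libraries Dcn (-0.32, adjusted p = 0.0985) and Lrat (0.25, adjusted p = 0.124) were called too: Dcn without low-fat shifted ZT0 replicate 1 (0.0249) or high-fat control ZT12 replicate 2 (0.0324), Lrat without the high-fat library with many zeros (0.0377).

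Lum ranged between 1.37 and 3.07 FPKM in high-fat offspring of shifted mothers, median 2.52 FPKM, against 1.74 to 7.86 FPKM, median 4.27 FPKM, in low-fat offspring. The log2 difference was -0.60 ± 0.17 (adjusted p = 0.0114). Bgn ranged between 20.4 and 33.3 FPKM on the high-fat diet, median 26.9 FPKM, against 24.7 to 52.1 FPKM, median 33.7 FPKM, on the low-fat diet. All 12 high-fat libraries were below the low-fat mean of their time (-0.39 ± 0.11, adjusted p = 0.0110), and the ranges overlapped. Mmp2 showed this in 12 of 12 libraries too (-0.35 ± 0.11, adjusted p = 0.0151). Its medians were 0.528 FPKM on the high-fat and 0.876 FPKM on the low-fat diet, and its highest high-fat library had 0.670 FPKM. Among the offspring arms, Mmp2 passed the filter on low values by itself only in this low-fat arm, where it is high. Its call is thus not independent of the filter. Rgs5 was higher on the high-fat diet, with medians of 2.72 and 1.15 FPKM (0.58 ± 0.17, adjusted p = 0.0145), in 8 of 12 libraries. The Col3a1 call was lost in 8 of 48 cases when 1 library was left out, with adjusted p between 0.0512 and 0.0685: low-fat ZT0 replicate 1, ZT6 replicate 1 and ZT12 replicate 3, and high-fat ZT0 replicate 1, ZT6 replicate 2, ZT12 replicate 3 and ZT18 replicates 1 and 2, all of shifted mothers.

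Other matrix genes were counted by list against the 11.6% of all genes that fell and the 11.5% that rose, with no test of the lists. Of 7 matrix proteases and inhibitors 5 fell, among them the membrane protease Mmp14 at -0.34 and the inhibitors Timp2 at -0.45 and Timp3 at -0.36, and Mmp19 rose by 0.57. Of 8 other proteoglycans 4 fell, including Gpc3 at -0.48 and Ogn at -0.38, and of 11 matrix glycoproteins 5 fell. Of 15 fibrillar collagen genes 3 fell and 1 rose, Col5a3 at 0.74. Of 7 myofibroblast markers Tpm2 (1.48) and Lgals1 (1.19) rose and S100a6 (-1.09), Myl9 (-0.50) and Tagln (-0.54) fell. Markers of portal fibroblasts and mesothelium moved with the matrix genes: of 6 tested, 4 fell, with mesothelin (Msln) at -0.80, and the sum of the list lay between 11.7 and 20.3 FPKM on the high-fat diet, median 16.99 FPKM, against 17.4 to 26.2 FPKM, median 23.6 FPKM, on the low-fat diet. The bile duct keratins Krt19 (-0.55) and Krt7 (-0.37) fell too, 2 of 5 cholangiocyte markers tested. No marker of the portal and mesothelial list was listed at 0 in more than 6 libraries of these arms. The part of these cell types in the members' differences was not tested.

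In offspring of control mothers, Lum and Lrat were lower on the high-fat diet, 2 of 10 members against 14.5% of all genes, 7.86% downward. Lum ranged between 0 and 3.37 FPKM on the high-fat diet, median 1.91 FPKM, against 1.58 to 9.79 FPKM, median 3.27 FPKM, on the low-fat diet, and 12 of 12 high-fat libraries were below the low-fat mean of their time. The log2 difference was -0.75 ± 0.17 (SE, adjusted p = 0.00403), -0.62 (adjusted p = 0.00545) without the library with many zeros and -0.41 (adjusted p = 0.00686) without the 5 libraries of low correlation. Lrat ranged between 0 and 2.11 FPKM, median 1.50 FPKM, against 1.26 to 3.66 FPKM, median 1.79 FPKM (-0.36 ± 0.12, adjusted p = 0.0364). Without the library with many zeros Lrat was no longer called (-0.26, adjusted p = 0.0615), and leaving out 1 library ended the call in 12 of 48 cases, with adjusted p between 0.0504 and 0.0771. Beside that library these were high-fat ZT6 replicates 1 and 2, ZT12 replicate 2 and ZT18 replicate 3, and low-fat ZT0 replicate 3, replicates 2 and 3 of each of ZT6, ZT12 and ZT18, all of control mothers. Col1a1, Col1a2 and Col3a1 had differences of -0.33, -0.28 and -0.29 with adjusted p of 0.191 or more, and Col1a1 was called without low-fat ZT0 replicate 1 (-0.46, adjusted p = 0.0490). Of all calls 45.8% were higher with median-of-ratios scaling and 14.6% with the values as deposited. Other genes were counted by list with no test, beside 725 of all 10931 genes that rose and 859 that fell. Of 19 resting stellate cell markers 5 rose and none fell, including Angptl6 at 0.51 and the parathyroid hormone receptor gene Pth1r at 0.47. Of 14 genes of TGF-beta and PDGF signalling 4 fell, with Tgfbr2 at -0.52.

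**Figure D3:**
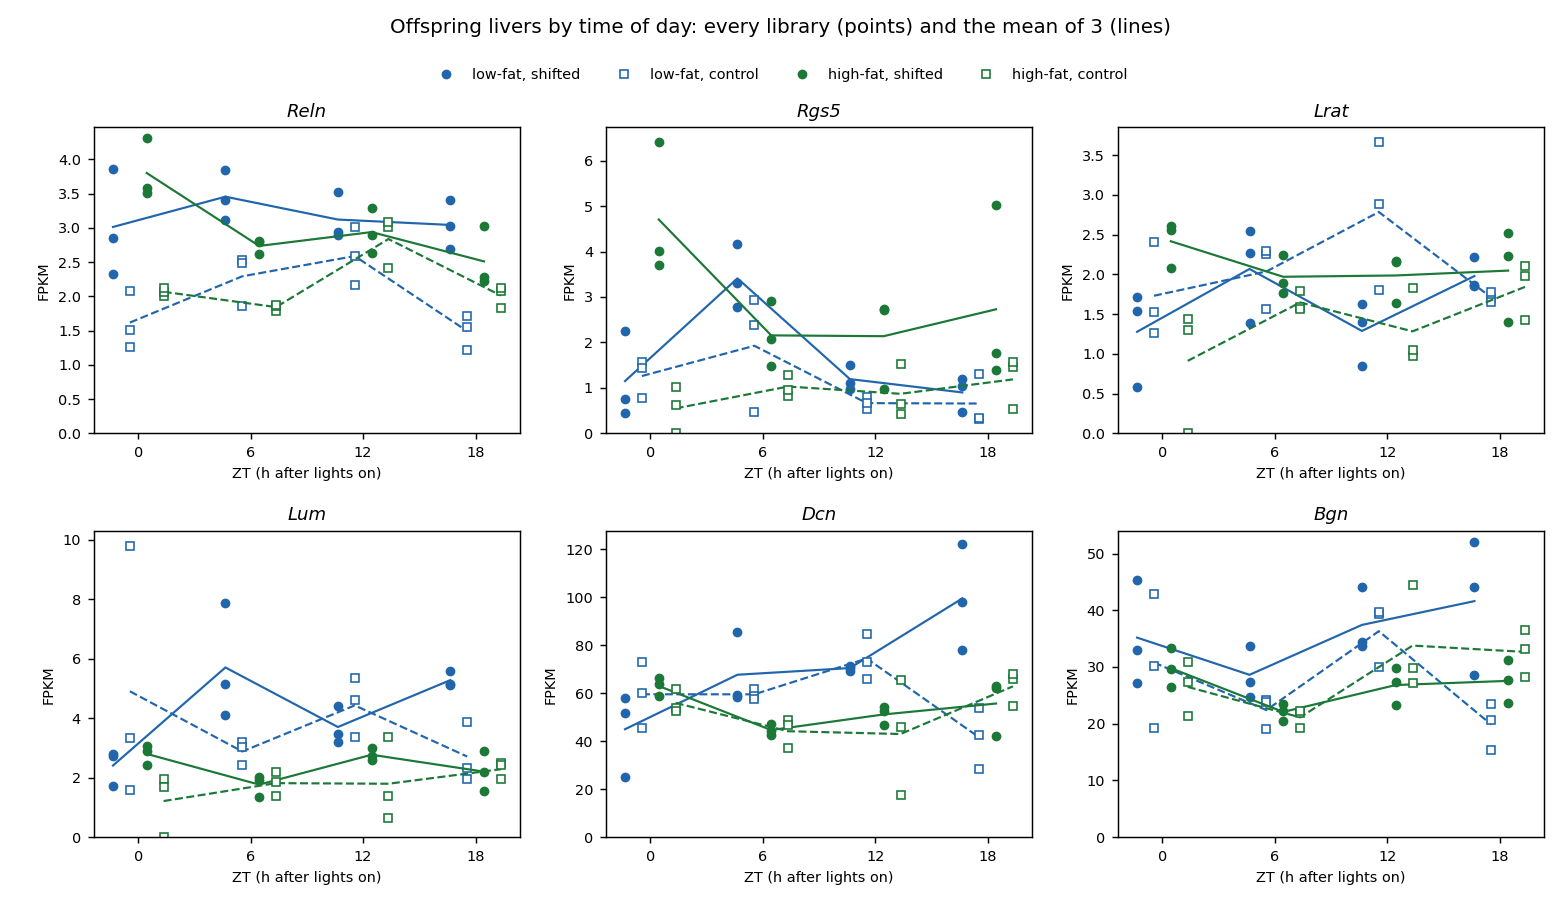
FPKM of Reln, Rgs5, Lrat, Lum, Dcn and Bgn by time of day in the 4 offspring arms, scaled within offspring; points are libraries, lines join the means of 3. The mean of Reln is higher in low-fat offspring of shifted than of control mothers at all 4 times, and Dcn has its highest mean, 99.5 FPKM, at ZT18 in the same arm.

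Time of day was tested within each arm, as any difference among the 4 times. In low-fat offspring of shifted mothers 3 of 10 members changed over the day, Lum, Rgs5 and Dcn, against 20.4% of all genes. Dcn averaged 45.02, 67.7, 70.5 and 99.5 FPKM at ZT0, ZT6, ZT12 and ZT18, with libraries of 25.0, 51.9 and 58.1 FPKM at ZT0 and of 78.1, 98.2 and 122 FPKM at ZT18, so those times did not overlap (adjusted p = 0.0487). Lum averaged 2.41, 5.70, 3.70 and 5.28 FPKM (adjusted p = 0.0197), and its ZT0 libraries, at 1.74, 2.71 and 2.78 FPKM, were below those of all other times. Rgs5 averaged 1.15, 3.41, 1.19 and 0.900 FPKM (adjusted p = 0.0200), with its ZT6 libraries at 2.77, 3.30 and 4.16 FPKM above all others of that arm. The Dcn call was lost in 6 of 8 alternatives, with adjusted p between 0.0531 with a pseudocount of 0.1 and 0.127 with cosine terms. Lum was lost with GC and length trends removed (0.0755) or cosine terms (0.476), and Rgs5 with no filter (0.0606) or without the libraries of low correlation (0.0502). Leaving out 1 library ended the Dcn call in 9 of 12 cases (ZT0 replicate 1, each library of ZT6 and ZT12, and ZT18 replicates 1 and 2), with adjusted p between 0.0606 and 0.129. Leaving out any 1 of the 3 ZT6 libraries ended the Rgs5 call, with adjusted p between 0.0521 and 0.0778.

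In high-fat offspring of shifted mothers 1 of 9 members, Reln, changed over the day, against 30% of all genes. It averaged 3.80, 2.74, 2.94 and 2.51 FPKM at the 4 times (adjusted p = 0.0307), highest at ZT0, and the call was lost with no filter (0.0631), GC and length trends removed (0.131) or cosine terms (0.292). It ended, with adjusted p of at most 0.102, in 7 of 12 cases when 1 library was left out: ZT0 replicate 1 or 3, ZT6 replicate 1 or 2, ZT12 replicate 2, or ZT18 replicate 1 or 2. In low-fat offspring of control mothers 0 of 9 members were called by limma, against 14.3% of all genes. The members of lowest adjusted p there were Reln (adjusted p = 0.0596), Dcn (adjusted p = 0.0798) and Bgn (adjusted p = 0.0893). In high-fat offspring of control mothers it was 0 of 8, against 0.766% of all genes, and without the library with many zeros it was 0 as well.

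Mothers and fetuses gave no member with a call for time of day. In limma 0 of 9 were called in shifted mothers, against 0.678% of all genes, and 0 of 9 in control mothers, against 4.29%. In control mothers the members of lowest adjusted p were Reln (adjusted p = 0.150) and Rgs5 (adjusted p = 0.251). In fetuses 0 of 9 were called in either arm, none at an unadjusted p below 0.05, where 0% of all genes were called in fetuses of shifted and 0% in those of control mothers, and 5.1% and 4.26% had an unadjusted p below 0.05. The difference between schedules in the course over the day was tested as well. It was called for 0 of 9 members in mothers (1.69% of all genes) and 0 of 9 in fetuses (0%). In low-fat offspring it was called for 0 of 10 (0.0457%) and in high-fat offspring for 0 of 10 (0%). At an unadjusted p below 0.05 there was 1 member in fetuses, beside 3.22% of all genes, and 2 in high-fat offspring, beside 7.47%. The lowest adjusted p among the members in low-fat offspring was that of Dcn, 0.112. A course called in 1 arm only is thus not shown to differ between schedules.

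**Figure D4:**
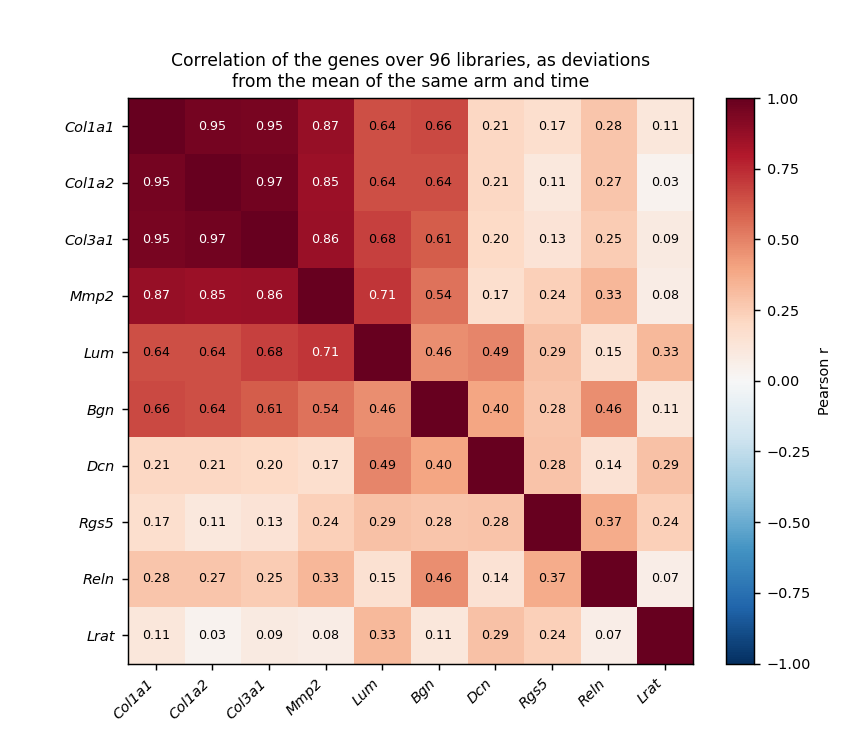
Pearson r between members over 96 libraries, computed on log2(FPKM + 1) as the deviation from the mean of the same arm and time. The 3 collagen chains form a block with r between 0.95 and 0.97, Mmp2 joins it, and Lrat and Rgs5 stand outside it.

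Within arms and times, the 3 collagen chains varied as 1 block. Over the 96 libraries, each as its deviation from the mean of its arm and time, r was 0.95 between Col1a1 and Col1a2, 0.95 between Col1a1 and Col3a1 and 0.97 between Col1a2 and Col3a1. Mmp2 followed them with r between 0.85 and 0.87, Lum with 0.64 to 0.68 and Bgn with 0.61 to 0.66. Dcn, though a collagen-binding proteoglycan like Lum and Bgn, had r of 0.20 to 0.21 with the chains and 0.49 with Lum. Lrat had r of 0.03 to 0.11 and Rgs5 of 0.11 to 0.17 with the chains, and Reln was closest to Bgn at 0.46. Rgs5 was near 0 in most fetal libraries, which limits its r. Its medians were 0.0914 FPKM in fetuses of shifted and 0.0776 FPKM in fetuses of control mothers. Without the library with many zeros the chains had r between 0.95 and 0.97 again, and Dcn and Lum 0.54. These values describe libraries that share their tables and unknown depths.

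Single libraries lay far from their group in the collagen chains, and r without all of them was not computed. Replicate 2 of the low-fat offspring of control mothers at ZT0 lay 1.48 above its group mean on the log2 scale averaged over the chains, with Col1a1 at 6.67 FPKM, Col3a1 at 19.8 FPKM, Lum at 9.79 FPKM and Mmp2 at 2.62 FPKM. Its partner, replicate 1 of the same group, lay 1.08 below that mean with Col1a1 at 0.345 FPKM. In replicate 2, Epcam was at 4.35 FPKM and Krt19 at 3.94 FPKM, both bile duct markers. Replicate 3 of fetuses of control mothers at ZT0 lay 1.15 above its mean, and replicate 2 of shifted mothers at ZT6 lay 1.02 above, with Col1a1 at 3.86 FPKM and Col3a1 at 14.1 FPKM.

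Outside the 10, the genes most like the mean of the 3 collagen chains over the same 96 libraries were Fstl1 (r = 0.88), the type VI collagen chains Col6a2 (0.85), Col6a3 (0.84) and Col6a1 (0.79), and Col5a2 (0.80). The genes most like Reln were Chst15 (0.76), Kdr (0.71) and Pcdhgc3 (0.69). Lrat had Rnf138 (0.65), Dynlt3 (0.63) and C1d (0.63), Dcn had Serpina7 (0.66), Gucy1a3 (0.65) and Snx10 (0.63), and Rgs5 had Jak1 (0.73), Tbl1x (0.70) and Mob1a (0.70). Fstl1 encodes a secreted glycoprotein, and Kdr a receptor of endothelial cells. Without the library with many zeros, a setting added after seeing the data, Olfml3 (0.82) took the place of Col5a2, P2ry1 (0.57) that of C1d beside Rnf138 (0.63) and Dynlt3 (0.56), and Fem1c (0.71) that of Tbl1x, while the genes named for Reln and Dcn were the same. Only genes at 1 FPKM or more in at least 3 libraries of each stage were ranked, without unnamed, predicted and duplicated symbols. A gene low in any stage could thus not be named. Between 9385 and 9388 genes were ranked for each, and the values are descriptions. Those of Rgs5 are limited by its low level in fetuses.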

How the data were processed

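Livers of mothers, fetuses and male offspring were profiled by stranded polyadenylated RNA sequencing (TRIzol extraction and an Illumina TruSeq kit, per the labels' protocols). The authors deposited FPKM values per gene in 8 tables, 1 per arm. The submitters' processing notes name TopHat2 2.1.1, Cufflinks 2.2.1 and build mm10, with no settings. Of 24883 entries, 817 entries of 280 symbols listed more than once were dropped.

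Median-of-ratios factors were computed for mothers, fetuses and offspring apart (mothers and fetuses together for their comparison), and a gene was kept where 3 or more libraries had a deposited FPKM of 1 or more. log2(FPKM + 1), which understates changes of low genes, was fitted in limma 3.58.1 (R 4.3.3, trended variance) with 1 mean per arm and time. Levels are differences of arm means over the 4 times, and time of day and its difference between schedules are F tests with 3 degrees of freedom. Adjusted p are Benjamini-Hochberg over all genes, with 0.05 as threshold. The fit was tested on simulated data.

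The members, gene lists and named genes were chosen with earlier results of these data known. From each list the text names called genes among the 4 of lowest adjusted p in each direction. Genes most like a member were ranked by Pearson r. Alternatives were another pseudocount (0.1), no filter, other scalings, the replicate number as a block, 2 arms in a fit, a cosine of 24 h, each library left out, GC and length trends removed, and doubted libraries left out. Tables were scaled together, but were made separately by the authors. Positions are from the GENCODE annotation of mm10, and sequences from RefSeq.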

Additional observations from a re-analysis of the deposited data

Results flagged for a closer look

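For 3 of the 10 genes the effect of the mother's light schedule differed between offspring diets by the interaction term in limma (difference between shifted and control mothers on the high-fat diet minus that on the low-fat diet, 12 libraries in each of 4 arms). The interaction was 0.69 for Rgs5 (adjusted p = 0.0359), 0.61 for Lrat (adjusted p = 0.00823) and -0.48 for Bgn (adjusted p = 0.0262). Without the high-fat control library that lists the most genes at 0, the values were 0.63 (adjusted p = 0.0404), 0.52 (adjusted p = 0.00550) and -0.49 (adjusted p = 0.0141). The Rgs5 call was lost in 4 of 7 alternatives (pseudocount 0.1, adjusted p = 0.0743; no filter, 0.0661; GC and length trends removed, 0.183; 5 libraries of low correlation left out, 0.0845) and for 15 of the 48 libraries when each was left out in turn. The Lrat call was lost with those trends removed (0.123) and the Bgn call with the values as deposited (0.301). Of all genes 24.1% had such a call.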

How the results depend on the processing

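Of the values of single members under alternatives, 1398 kept direction and side of the threshold, 35 lost and 19 gained a call, and 19 turned sign beside those with 1 library left out. The Reln call in low-fat offspring was kept under all alternatives run, and between fetuses and mothers 9 members were called with values as deposited and 10 under the other alternatives run. The number of members called became 1 in mothers (0 before) with values as deposited; 0 in fetuses with no filter, values as deposited, the replicate block (Bgn, adjusted p = 0.0572) or GC and length trends removed; 1 in high-fat offspring by schedule with those trends removed; 1 between diets of control mothers' offspring with pseudocount 0.1, no filter, trends removed or only the 2 arms; and 3 between diets of shifted mothers' offspring with values as deposited. For time of day it became 1 in low-fat offspring of shifted mothers with no filter, without the libraries correlated under 0.95, or with cosine terms. In low-fat offspring of control mothers it became 2 with values as deposited and 1 with trends removed, without those libraries or with cosine terms. In high-fat offspring of shifted mothers it became 2 with trends removed and 0 with cosine terms, and for time by schedule in low-fat offspring 2 without those libraries. For the interaction it stayed at 2 or 3. The cause was not tested.

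With 1 library left out, counts ranged from 0 to 1 in fetuses, 3 to 4 in high-fat offspring by schedule, 1 to 3 and 5 to 7 between diets with control and shifted mothers, 2 to 3 for the interaction, 1 to 3, 0 to 2 and 0 to 4 for time of day in low-fat shifted, low-fat control and high-fat shifted offspring, and 0 to 2 for time by schedule on the low-fat diet. Values that turned sign in mothers were Dcn (-0.045 as deposited, -0.078 with trends removed), Bgn (-0.043 as deposited) and Col1a2 (0.026 with trends removed); in fetuses Lrat (0.0090 as deposited). In high-fat offspring by schedule they were Dcn (-0.13 with trends removed), Bgn (0.18), Col1a2 (0.13) and Mmp2 (0.038) as deposited, and Col3a1 (-0.022 upper quartile, -0.12 trends removed, -0.033 without the libraries under 0.95). Between diets of control mothers' offspring they were Bgn (-0.038 as deposited) and Rgs5 (0.035 with trends removed), in the interaction Dcn (0.087) and Col1a1 (0.021) as deposited and Lum (-0.16 without the libraries under 0.95), and between fetuses and mothers Lrat (0.076 with shifted and 0.080 with control schedules, as deposited). With 1 library left out, values on both sides of 0 were found in mothers for Dcn (-0.026 to 0.079), Bgn (-0.011 to 0.083), Lum (-0.10 to 0.029), Col1a2 (-0.12 to 0.050), Col3a1 (-0.21 to 0.056) and Rgs5 (-0.15 to 0.019), in fetuses for Lrat (-0.050 to 0.0087), in high-fat offspring by schedule for Dcn (-0.025 to 0.21), Col1a2 (-0.079 to 0.012) and Col3a1 (-0.051 to 0.084), and in the interaction for Col1a1 (-0.24 to 0.069). Between 3 and 12 of 18 same-numbered pairs per arm correlated above 0.1. Their median r lay between -0.084 in control mothers and 0.22 in fetuses of shifted mothers. Pairs were taken only within an arm, so whether the numbers pair samples was not settled. The replicate block changed no other count of level calls, and for time of day in low-fat offspring of shifted mothers it gave 2. Values near 1 FPKM, as of Lrat, Rgs5, Col1a1 and Mmp2, are limited by a depth that is unknown.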
